A study of Mus musculus with 8 samples.

Results

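The genes described here are osteocalcin and the genes it is usually studied with in mineralizing tissue, which are Bglap, Bglap2, Mgp, Spp1, Ibsp, Alpl, Runx2, Sp7 and Sparc. These 9 genes were chosen by name out of the 22520 protein-coding genes measured in liver ECs, by a rule that uses no expression value. However, the study had already named osteocalcin among the most increased genes of its mRNA-seq data. Its difference between the genotypes was thus known beforehand, and its p-values are no independent support. All 9 were found in the table by their symbols. The question was whether osteocalcin was higher alone in LRP1 eKO cells or together with the rest of its bone program.

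Gene expression was measured by mRNA-seq in microvascular cells isolated from mouse liver, with 4 libraries from LRP1 eKO mice (LRP1 f/f; Cdh5-CreER+/-) and 4 from WT mice (LRP1 f/f; Cdh5-CreER-/-). Both groups carried the floxed Lrp1 alleles on a C57BL/6 strain label and differed in a Cre recombinase that the Cdh5 promoter drives in endothelium and that tamoxifen activates. The labels give postnatal day 14 as the age, and ECs were selected with beads that bind PECAM-1, a surface protein of ECs. No source used here says whether a library held 1 mouse or several. The p-values therefore set a genotype difference against the spread between these libraries, which may not be that between mice.

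Osteocalcin is a small protein that osteoblasts secrete into bone matrix and blood. It belongs to the Gla proteins, in which glutamate residues are carboxylated in a reaction that needs vitamin K, and matrix Gla protein (Mgp) is a relative that keeps vessel walls and cartilage free of mineral. In osteoblasts the transcription factors Runx2 and Sp7 act upstream of the matrix genes Bglap, Ibsp and Spp1 and of Alpl, the phosphatase that removes pyrophosphate, an inhibitor of mineral growth.

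Bglap and Bglap2 are neighbouring osteocalcin genes on the minus strand of chromosome 3 of GRCm38. Bglap (ENSMUSG00000074483) lies at chr3:88383501-88384464 and Bglap2 at chr3:88377736-88378699, each with 4 exons. Their coding sequences are shown because reads of genes this alike can be assigned to either. The sequences are from the GENCODE M21 transcripts, 5′ to 3′, and capitals mark the bases that differ from Bglap.
Bglap: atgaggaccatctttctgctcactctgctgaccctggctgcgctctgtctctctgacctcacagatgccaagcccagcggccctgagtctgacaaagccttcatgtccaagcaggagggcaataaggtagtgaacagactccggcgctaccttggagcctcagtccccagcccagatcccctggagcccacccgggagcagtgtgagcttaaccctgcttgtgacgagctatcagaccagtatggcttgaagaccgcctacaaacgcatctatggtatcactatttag
Bglap2: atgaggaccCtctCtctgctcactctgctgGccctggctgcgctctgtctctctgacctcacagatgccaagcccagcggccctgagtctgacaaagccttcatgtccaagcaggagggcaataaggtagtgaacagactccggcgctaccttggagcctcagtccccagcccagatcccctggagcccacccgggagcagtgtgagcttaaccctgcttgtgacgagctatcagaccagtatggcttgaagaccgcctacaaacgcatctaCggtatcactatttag
Each coding sequence has 288 bases. Bglap2 differs from Bglap at 4 of them (98.6% identity). Of the 239 windows of 50 bases in the Bglap2 coding sequence, 192 (80.3%) are identical to a window of Bglap. How reads matching both genes were counted is not given in the sources used here, and the split between Bglap and Bglap2 is therefore uncertain.

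The 250 bases before the start of Bglap (RefSeq, GRCm38.p6, minus strand, chr3:88384467-88384716) are shown because osteocalcin was the gene that the study followed. Capitals mark TATAAA, the TATA box, and ACCACA, the core letters of a Runx site.
Bglap promoter: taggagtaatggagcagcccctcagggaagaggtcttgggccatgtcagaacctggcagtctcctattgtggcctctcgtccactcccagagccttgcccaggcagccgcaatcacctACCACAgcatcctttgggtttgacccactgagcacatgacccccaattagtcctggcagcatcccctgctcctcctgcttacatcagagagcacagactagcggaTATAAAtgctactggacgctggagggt
TATAAA begins 27 bases and ACCACA 132 bases before the start. Windows of 250 bases before to 50 bases after the start were searched on both strands for 6 of the 9 genes, which have 8 such windows. The longer Runx site AACCACA, which contains ACCACA, occurred at Runx2 and Spp1, and in 5.27% of 32851 mouse promoters. ACCACA, searched after the Bglap sequence was seen, occurred at Bglap, Runx2, Sparc and Spp1, and in 16.8% of all promoters. TATAAA occurred at Alpl, Bglap, Ibsp and Spp1 and in 13.6% of all promoters. The FoxO site GTAAACA (3.65% of promoters) and the E-box CACGTG (7.15%) occurred in 0 of the 8 windows.

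Values are quantile-normalized signals, a scale on which each library was given nearly the same set of sorted values. The smallest signal above 0 fell with transcript length (Spearman's rho -0.61 across 2918 genes, which are not independent), as on a scale per length, and levels of different genes are set side by side only on this scale. Signals summed to between 484445 and 485947 in each library, and the read depth is unknown. Differences were tested with limma on log2(signal + 1) over the 11391 genes that reached a signal of 1 in 4 or more of the 8 libraries, and every fold change below is on that log2 scale. Lrp1 was 65.5 ± 13.3 (SD, n = 4) in WT and 4.41 ± 1.65 in LRP1 eKO cells. WT replicate 4 and LRP1 eKO replicate 2 stood apart, being the library farthest from the group median for 61.7% and 37.2% of genes.

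The selected cells carried the EC markers at low signals. Pecam1 was 2.09 ± 0.42 in WT and 3.02 ± 0.91 in LRP1 eKO cells, and Cdh5, the gene whose promoter drives Cre, was 1.86 ± 0.43 and 3.70 ± 1.34 (SD over 4 libraries). The 14 EC markers summed to between 36.7 and 42.4 in WT and between 45.4 and 73.5 in LRP1 eKO libraries, and 3 of the 9 tested rose (Cdh5, Eng and Oit3) while 0 fell. Oit3 passed the filter described above through the LRP1 eKO libraries alone and had to differ, and over all genes tested 19.0% rose. The Cdh5 groups overlapped. Below the filter, Cldn5 was lower in all LRP1 eKO libraries (1.08 ± 0.10 to 0.67 ± 0.12, limma adjusted p = 0.0069 without the filter). Tek, also below it, was higher with overlap (0.31 ± 0.12 to 0.52 ± 0.09, limma adjusted p = 0.045 without the filter). Eng carried the separation of the sums. Without Eng, the sum was 26.5, 28.5, 27.8 and 25.8 in WT replicates 1 to 4 and 46.0, 25.7, 39.2 and 31.3 in LRP1 eKO replicates 1 to 4, so that LRP1 eKO replicate 2 was the lowest of the 8. The part of these markers in the results below was not tested. In contrast, 13 stellate cell and fibroblast markers summed to between 1157 and 1210 in WT and between 883 and 1019 in LRP1 eKO libraries. The 7 smooth muscle markers summed to between 1509 and 1570 in WT and between 1856 and 1941 in LRP1 eKO libraries. Most of that sum was Acta2 (means of 811 in WT and 1066 in LRP1 eKO cells) and Tagln (674 and 764). Myh11 of the same list was only 0.53 and 1.53. In bulk RNA such as this, fewer cells of a type and less RNA per cell cannot be told apart. The plot of cell type marker lists shows these sums for each library.

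**Figure D1:**
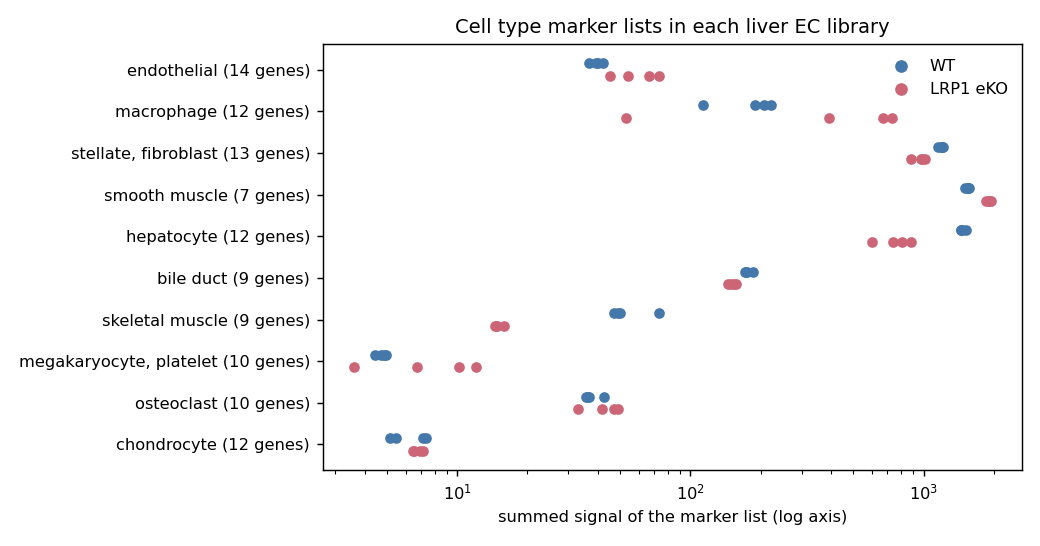
Summed quantile-normalized signal (log axis) of 10 marker lists, with 1 point per library, blue for the 4 WT and red for the 4 LRP1 eKO libraries. Smooth muscle and fibroblast sums lie above the endothelial sums in every library, and the skeletal muscle and hepatocyte sums are lower in all LRP1 eKO libraries than in all WT libraries. The smooth muscle sum is mostly Acta2 and Tagln, and the hepatocyte sum is mostly Trf.

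Of the 9 genes, 7 passed the filter, and Ibsp and Sp7 did not. At a limma adjusted p below 0.05, 3 rose in LRP1 eKO libraries (Bglap, Bglap2 and Runx2) and 3 fell (Mgp, Alpl and Sparc), while Spp1 did not pass. Among all genes tested, 19.0% rose and 22.2% fell by that rule. With a 2-fold change required as well, Bglap and Bglap2 rose and Mgp fell, against 0.869% of all genes that rose and 0.79% that fell. WT and LRP1 eKO libraries did not overlap for 6 of the 7 genes, against 42.6% of all genes. Bglap and Bglap2 were below 1 in every WT library and passed the filter through their LRP1 eKO libraries alone, so that they had to differ. Their counts and their p-values with the filter are no support. Without WT replicate 4 and LRP1 eKO replicate 2, a choice made after the data were seen, Spp1 rose as well and Alpl no longer passed (adjusted p = 0.063).

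**Figure D2:**
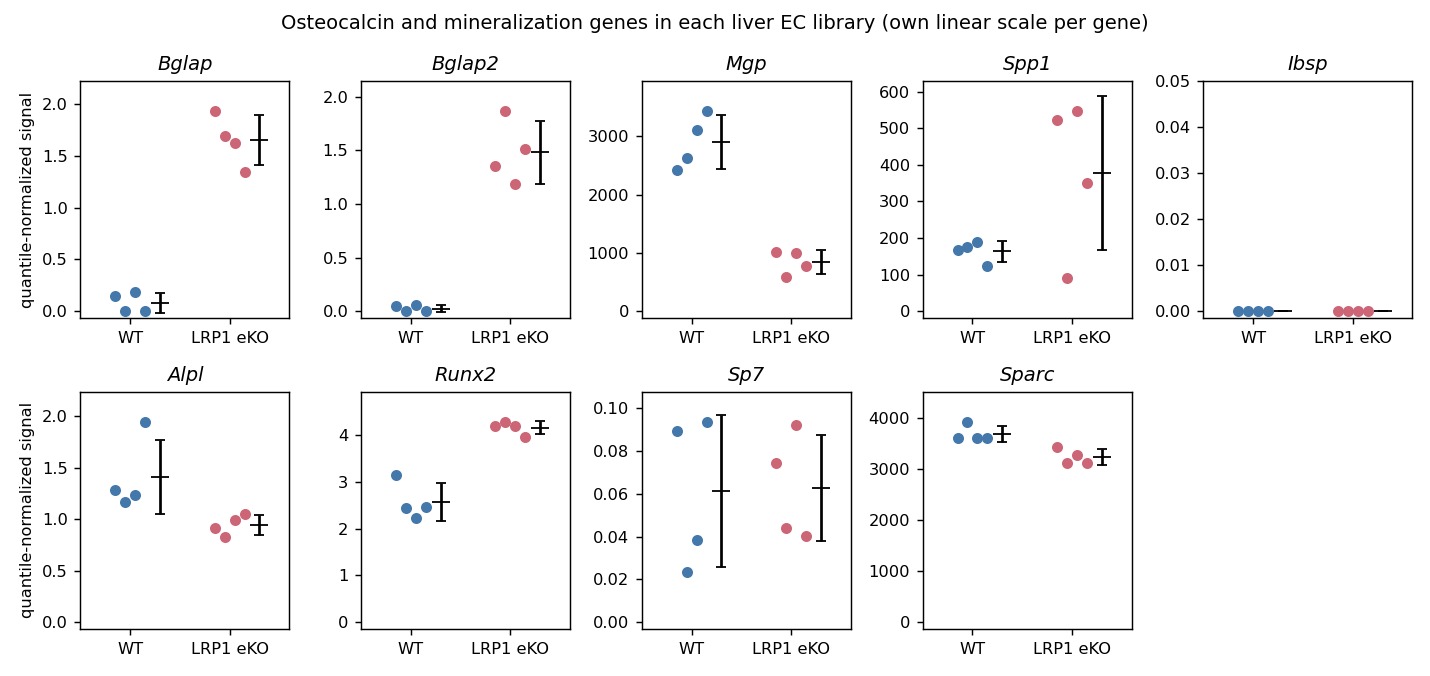
Quantile-normalized signal of each of the 9 genes (linear axis, its own scale per gene) in the 4 WT (blue) and 4 LRP1 eKO (red) libraries, with the mean and SD as bars. Bglap, Bglap2 and Runx2 are higher in all LRP1 eKO libraries, Mgp, Alpl and Sparc are lower in all of them, and Spp1 overlaps because LRP1 eKO replicate 2 is the lowest of the 8.

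**Figure D3:**
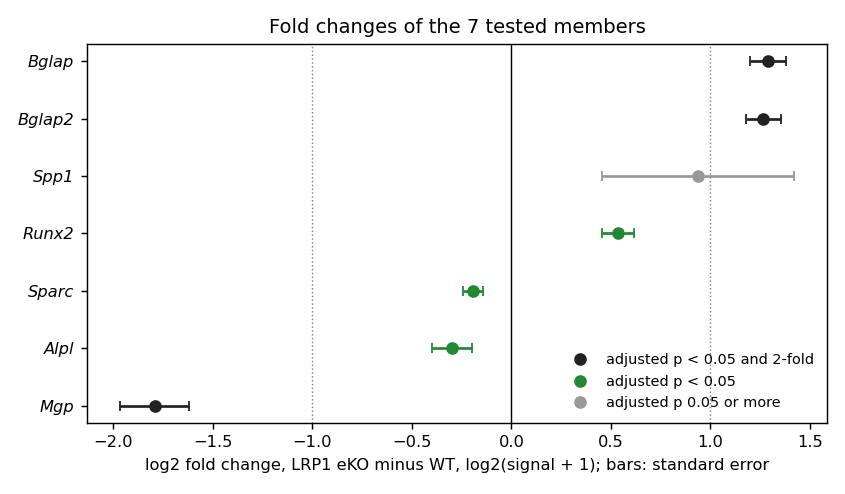
Log2 fold change of log2(signal + 1), LRP1 eKO minus WT, for the 7 tested genes, with the standard error as bars and dotted lines at 2-fold. Bglap, Bglap2 and Mgp lie beyond 2-fold, Runx2, Sparc and Alpl lie within it, and Spp1 has the widest bar.

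Bglap was nearly absent from WT cells and reached a low signal in LRP1 eKO cells. Its signal was 0.151, 0, 0.181 and 0 in WT replicates 1 to 4 and 1.93, 1.69, 1.62 and 1.35 in LRP1 eKO replicates 1 to 4. The lowest LRP1 eKO library was above the highest WT library, and 2 of 4 WT libraries were listed at 0. The means were 0.0831 ± 0.0968 and 1.65 ± 0.24 (SD, n = 4 each), and the LRP1 eKO mean was higher than those of 52.8% of all measured genes. These include the genes at 0, between 6186 and 6308 in each LRP1 eKO library, and the mean was little above the filter signal of 1. In the fit its log2 fold change was 1.29, with a standard error of 0.09 (limma adjusted p = 6.6e-06, and 4.6e-05 without the filter). An exact two-sided permutation test gave p = 0.029, the smallest that 4 libraries against 4 allow. The log2 scale with a pseudocount understates a change from near 0, and the ratio of the arithmetic means was 19.8. The size depended on the pseudocount, with a log2 fold change of 0.39 for a pseudocount of 5, which is below 2-fold, and of 3.41 for one of 0.1.

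Bglap2, which encodes nearly the same protein, followed the same pattern. Its signal was 0.0475, 0, 0.0563 and 0 in WT replicates 1 to 4 and 1.36, 1.86, 1.18 and 1.51 in LRP1 eKO replicates 1 to 4. All LRP1 eKO libraries were above all WT libraries, and the same 2 WT libraries were at 0 as for Bglap. On the log2 scale the difference was 1.27 with a standard error of 0.09 (limma adjusted p = 5.4e-06, and 3.6e-05 without the filter). Bglap and Bglap2 transcripts are 440 and 471 bases long, and for genes of 400 to 600 bases the 10th percentile of signals above 0 was between 0.0511 and 0.0882 in each library. Thus the Bglap2 signals of WT cells lay near the lowest that the table records for genes of that length. Bglap2 made up 23.9% and 23.7% of the summed Bglap and Bglap2 signal in the WT libraries that had any, and 41.3%, 52.4%, 42.2% and 52.9% in LRP1 eKO replicates 1 to 4.

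Because these genes can share reads, their signals were also added. The sum was 0.109 ± 0.127 in WT and 3.13 ± 0.36 in LRP1 eKO cells (SD, n = 4 per group), with no overlap. The log2 fold change of the sum was 1.90 (exact two-sided permutation test, p = 0.029). This comparison does not depend on the split between the 2 genes.

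Mgp, the Gla protein that restrains calcification of arteries and cartilage, moved in the opposite direction and was far more abundant. Its signal was 2427, 2636, 3115 and 3435 in WT replicates 1 to 4 and 1015, 595, 1006 and 779 in LRP1 eKO replicates 1 to 4. Every LRP1 eKO library was below every WT library, and LRP1 eKO replicate 2 was the lowest. The means were 2904 ± 457 and 849 ± 201 (SD, n = 4 each), so that 29.2% of the WT level was left. This was a log2 fold change of -1.79 with a standard error of 0.17 (limma adjusted p = 4.3e-05). In order of mean signal Mgp was gene number 11 of the table in WT and number 74 in LRP1 eKO libraries, and by log2 fold change it was number 12 from the most decreased of the 11391 genes.

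Both Gla proteins are compared directly by their ratio on this scale. Mgp was 12222 and 13112 times the summed osteocalcin signal in WT replicates 1 and 3, and the ratio has no value in the other WT libraries. In LRP1 eKO replicates 1 to 4 it was 309, 167, 358 and 273 times that sum. Mgp therefore remained the more abundant transcript in every library. Of the markers of some of the cell types that make Mgp, fibroblast markers fell in 5 and rose in 2 of 10 tested genes. Smooth muscle markers rose in 6 of 7 (Myh11 through the filter by its LRP1 eKO libraries alone). EC markers, those of the selected cells, rose in 3 and fell in 0 of 9 tested (Oit3 likewise through the filter). Among all genes tested, 19.0% rose and 22.2% fell. The chondrocyte markers were below 1 in every library for 10 of 12 genes. The part of all these markers in the Mgp result was not tested.

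Spp1 and Ibsp encode osteopontin and bone sialoprotein, acidic phosphoproteins that bind mineral and integrins. Spp1 lies at chr5:104435118-104441050 and Ibsp on the same chromosome at chr5:104299171-104311469. Spp1 was 167, 175, 188 and 123 in WT replicates 1 to 4 and 522, 91.6, 547 and 351 in LRP1 eKO replicates 1 to 4. In LRP1 eKO cells 3 libraries were above all WT libraries and replicate 2 was below them all. The means were 163 ± 28.2 and 378 ± 210 (SD, n = 4 each), and the log2 fold change of 0.94 did not pass (standard error 0.48, limma adjusted p = 0.14; exact two-sided permutation test, p = 0.17). Without LRP1 eKO replicate 2 the log2 fold change was 1.52 (limma adjusted p = 2.6e-04), so that 1 library decided the call.

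Macrophages also express Spp1, and the summed signal of 12 macrophage and Kupffer cell markers varied with it across the libraries. Their sum was 189, 207, 222 and 113 in WT replicates 1 to 4 and 734, 52.8, 671 and 393 in LRP1 eKO replicates 1 to 4. The library with the lowest Spp1 signal had the lowest marker sum, and the 3 libraries with the highest Spp1 signals had the highest marker sums. Of 9 markers tested, 1 rose (Csf1r, 2.58 ± 0.06 to 6.32 ± 3.10, limma adjusted p = 0.030) and 0 fell, against 19.0% and 22.2% of all genes. The median log2 fold change of the 9 was 1.14. The Csf1r groups overlapped, since LRP1 eKO replicate 2 was below every WT library, and the call was lost without the filter (limma adjusted p = 0.069). Not every marker went with Spp1. Below the filter, Clec4f was at 0 in every WT library and between 0.124 and 0.826 in LRP1 eKO libraries (limma adjusted p = 0.016 without the filter). Its value in LRP1 eKO replicate 2 was thus above every WT library. Timd4 was at most 0.0237 in any library. The most abundant marker, Lyz2, was 114 ± 30.7 in WT and 233 ± 154 in LRP1 eKO cells (limma adjusted p = 0.52), and 0 of the 12 markers were at 0 in every library. Their part in the Spp1 result was not tested.

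**Figure D4:**
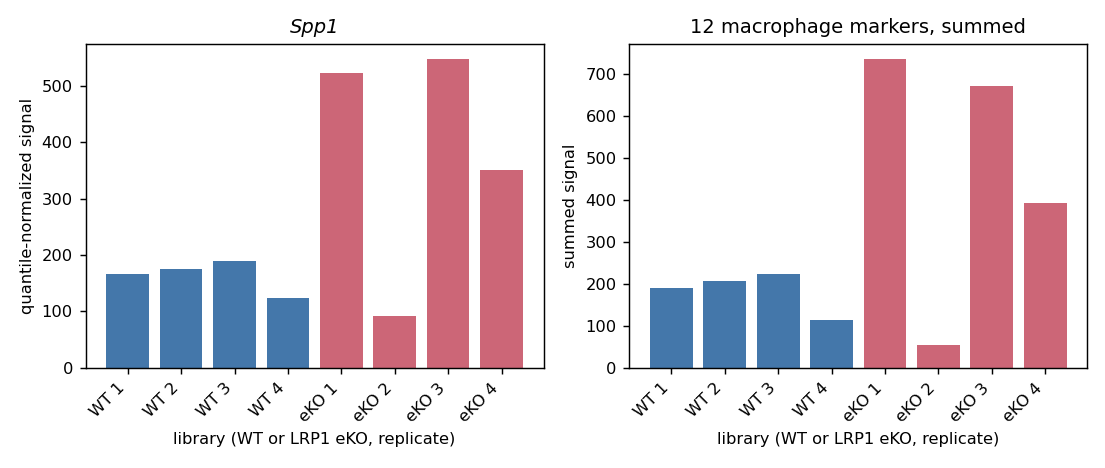
Quantile-normalized signal of Spp1 (left) and summed signal of 12 macrophage and Kupffer cell markers (right) in each library, as bars from 0, blue for WT and red for LRP1 eKO. LRP1 eKO replicate 2 has the lowest bar in both panels, and the other 3 LRP1 eKO libraries have the highest bars in both.

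Ibsp, a marker of osteoblasts that lay down mineral, was listed at 0 in all 8 libraries. Sp7 (osterix), the transcription factor that acts after Runx2 in osteoblast formation, ranged from 0.0236 to 0.0937 in WT and from 0.0404 to 0.0922 in LRP1 eKO libraries. The groups overlapped almost fully, and the log2 fold change was 0.002 (limma adjusted p = 0.96 without the filter).

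Runx2, the master transcription factor of osteoblasts, was the only transcription factor of the 9 genes that passed the filter. Its signal was 3.16, 2.44, 2.23 and 2.46 in WT replicates 1 to 4 and 4.2, 4.29, 4.19 and 3.96 in LRP1 eKO replicates 1 to 4. All LRP1 eKO libraries were above all WT libraries and lay close together. The means were 2.57 ± 0.41 and 4.16 ± 0.14 (SD, n = 4 each), and the ratio of these arithmetic means was 1.62. The difference of 0.54 on the log2(signal + 1) scale, below the 2-fold threshold, had a standard error of 0.08 (limma adjusted p = 7.2e-04). Runx2 lies at chr17:44495987-44814797 on the minus strand.

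Alpl, tissue-nonspecific alkaline phosphatase, was lower in LRP1 eKO cells. Its signal was 1.28, 1.16, 1.24 and 1.95 in WT replicates 1 to 4 and 0.913, 0.823, 0.996 and 1.05 in LRP1 eKO replicates 1 to 4. The groups did not overlap, and WT replicate 4 was the highest. With a standard error of 0.10, the log2 fold change of -0.30 passed (limma adjusted p = 0.039). The limma call was lost without the filter (adjusted p = 0.060) and without WT replicate 1 (0.055) or any 1 of LRP1 eKO replicates 1 to 4 (0.080, 0.080, 0.067 and 0.057). Without WT replicate 4 the log2 fold change was -0.20, and it was -0.17 without that library and LRP1 eKO replicate 2.

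Sparc (osteonectin), a collagen-binding matrix protein made by bone and by many connective tissues, was among the most abundant transcripts of both groups. Its signal was 3618, 3931, 3618 and 3618 in WT replicates 1 to 4 and 3435, 3115, 3281 and 3115 in LRP1 eKO replicates 1 to 4. Equal values arise because quantile normalization gives the gene of a given rank the same value in each library. The groups did not overlap, and the means differed by little (3696 ± 157 and 3237 ± 154, SD, n = 4 each). The Sparc difference of -0.19 on the log2 scale, with a standard error of 0.05, was called (limma adjusted p = 0.015), and the call was lost without the filter (adjusted p = 0.088). In order of mean signal Sparc was gene number 7 in WT and number 10 in LRP1 eKO libraries.

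The other genes of bone matrix, mineral balance and osteocalcin handling were read from 6 lists. They hold 75 different genes in the table, of which 40 passed the filter and 28 were below 1 in every library, including 4 at 0 in every library. Of the 40 genes tested, 10 rose and 10 fell at a limma adjusted p below 0.05, against 19.0% and 22.2% of all genes tested. With a 2-fold change required, 0 rose and 2 fell. Without the filter on low signals, 5 of the 10 higher calls (Entpd1, Hdac4, Nt5e, Ptprv and Smpd3) and 0 of the 10 lower calls were lost. The median log2 fold change was 0.07, beside -0.01 over all genes tested.

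**Figure D5:**
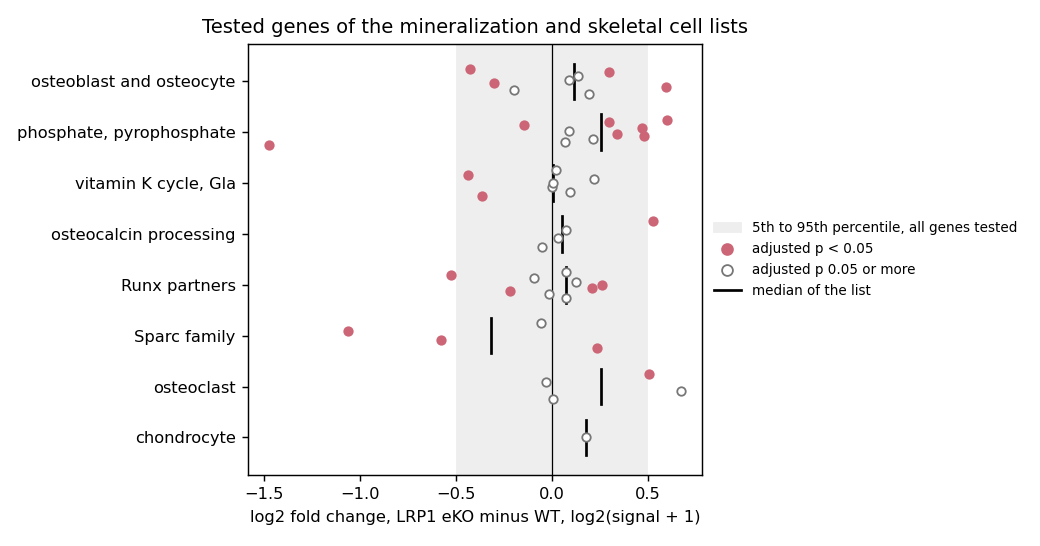
Log2 fold change of log2(signal + 1), LRP1 eKO minus WT, of each tested gene in 8 lists, filled where the limma adjusted p was below 0.05, with the median of each list as a bar and the 5th to 95th percentile of all genes tested (-0.49 to 0.50) in grey. Filled points lie on both sides of 0 in the osteoblast, phosphate, Runx and Sparc family lists, and Ahsg and Sparcl1 lie beyond -1.

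Among 22 osteoblast and osteocyte genes, most were hardly detected. Dmp1 and Mepe, which encode osteocyte matrix proteins, were at 0 in all 8 libraries, and 14 of the 22 genes were below 1 in every library. Of 8 tested, 2 rose and 2 fell, against 19.0% and 22.2% of all genes. Fam20c, the kinase that phosphorylates matrix proteins such as osteopontin, rose from 10.6 ± 1.45 to 16.5 ± 2.29 (limma adjusted p = 0.0021). Vdr, the vitamin D receptor, fell from 6.38 ± 0.05 to 4.54 ± 0.82 (limma adjusted p = 0.0066). Smpd3, a sphingomyelinase needed for bone mineralization, rose (log2 fold change 0.30, limma adjusted p = 0.041, and 0.081 without the filter) and Pdpn, a mucin-like surface protein of early osteocytes and lymphatic vessels, fell (-0.30, 4.8e-04).

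The collagen I genes that make up most of bone matrix did not pass. Col1a1 was 389 ± 43.8 in WT and 445 ± 49.0 in LRP1 eKO cells (limma adjusted p = 0.14), and Col1a2 was 833 ± 89.5 and 729 ± 91.0 (limma adjusted p = 0.15). Below the filter, Fgf23, the phosphate-lowering hormone of osteocytes, was between 0.116 and 0.307 in WT and between 0.487 and 0.878 in LRP1 eKO libraries (limma adjusted p = 0.0065 without the filter). Bmp8a, a bone morphogenetic protein, was between 0.0556 and 0.156 in WT and between 0.234 and 0.404 in LRP1 eKO libraries (0.0062 without the filter). Both genes showed no overlap between groups, at signals below those of Bglap in LRP1 eKO libraries, and 42.6% of all genes tested showed none. They were named after their values were seen. Other genes of the 6 lists below the filter fell without overlap. F2 was 0.80 ± 0.20 in WT and 0.22 ± 0.02 in LRP1 eKO cells (limma adjusted p = 0.0013 without the filter). Smoc1 was 0.48 ± 0.04 and 0.25 ± 0.08 (0.0060 without the filter).

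Of the genes that set the balance of phosphate and pyrophosphate, 5 of 10 tested rose, 2 fell and 3 did not pass, against 19.0% and 22.2% of all genes. Tnfrsf11b (osteoprotegerin), a decoy receptor that limits osteoclast formation and arterial calcification, rose from 1.07 ± 0.14 to 2.14 ± 0.12 (limma adjusted p = 1.5e-04). Slc20a1, a sodium-phosphate cotransporter, rose from 11.8 ± 0.51 to 16.7 ± 1.79 (limma adjusted p = 8.6e-04). Nt5e and Entpd1, ectoenzymes that act on extracellular nucleotides, also rose (limma adjusted p = 0.035 each), with overlap between the groups and no call without the filter (0.070 and 0.074). Slc20a2, a second phosphate cotransporter, fell (limma adjusted p = 0.045). Enpp1, which makes extracellular pyrophosphate, was 0.95 ± 0.12 in WT and 1.28 ± 0.32 in LRP1 eKO cells (limma adjusted p = 0.12).

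Ahsg (fetuin-A), a circulating inhibitor of calcification that hepatocytes secrete, fell the most of this list. It was 41.1 ± 7.73 in WT and 14.0 ± 1.66 in LRP1 eKO cells, a difference of -1.47 on the log2 scale (limma adjusted p = 2.8e-05). All 7 hepatocyte markers tested of 12 fell too, against 22.2% of all genes, with a median of -1.15. The sum of the 12, mostly Trf, was between 1449 and 1517 in WT and between 604 and 888 in LRP1 eKO libraries. None of these markers was at 0 in every library, and their part in the Ahsg result was not tested.

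Of the enzymes of the vitamin K cycle and the other Gla proteins, 0 of 7 tested rose and 2 fell, against 19.0% and 22.2% of all genes. Ggcx, the carboxylase that makes Gla residues, was 11.7 ± 0.86 in WT and 12.5 ± 0.50 in LRP1 eKO cells (limma adjusted p = 0.24). Vkorc1, the reductase that recycles vitamin K, fell from 100.1 ± 7.32 to 73.7 ± 7.40 (limma adjusted p = 0.0018). This value is of the row that the table spells VKORC1 and that matched by identifier. Another row carries the symbol Vkorc1 under another identifier, and its values are not given here. Gas6, a Gla protein that activates receptor tyrosine kinases of the TAM family, was the most abundant gene of the list and fell from 527 ± 5.63 to 410 ± 20.5 (limma adjusted p = 2.0e-04). Pros1, the anticoagulant protein S, was 15.1 ± 0.60 and 15.2 ± 1.98 (limma adjusted p = 1.00).

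Of genes that process osteocalcin or serve as its receptors, 1 of 4 tested rose and 0 fell, against 19.0% and 22.2% of all genes. Furin, a protease that cuts the propeptide from osteocalcin, was 25.6 ± 2.20 in WT and 24.6 ± 1.38 in LRP1 eKO cells (limma adjusted p = 0.56). Ptprv, a phosphatase that controls osteocalcin carboxylation in mouse osteoblasts, was 1.68 ± 0.61 and 2.86 ± 0.86 with overlap between the groups (log2 fold change 0.53, limma adjusted p = 0.0496, and 0.0996 without the filter). Gprc6a, a receptor for osteocalcin, was at most 0.0410 in any library, and Gpr158, another, was at 0 in all 8.

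Among 13 Runx family members and partners or inhibitors of Runx2, 2 of 9 tested rose and 2 fell, against 19.0% and 22.2% of all genes. Twist1, which inhibits Runx2, fell from 14.8 ± 0.54 to 10.1 ± 0.83 (limma adjusted p = 1.8e-04), and Foxo1 fell from 4.44 ± 0.20 to 3.69 ± 0.20 (0.015). Runx1, a related factor of blood cell formation, rose from 1.67 ± 0.05 to 2.21 ± 0.29 (limma adjusted p = 0.019), and Hdac4, a deacetylase that represses Runx2, rose as well (log2 fold change 0.21, 0.049, and 0.082 without the filter). Cbfb, the partner subunit that Runx proteins need to bind DNA, was 15.4 ± 1.32 and 15.3 ± 1.72 (limma adjusted p = 0.90). Atf4, a factor that cooperates with Runx2 at the osteocalcin gene, was 157 ± 3.46 and 166 ± 10.5 (limma adjusted p = 0.25).

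Of the relatives of Sparc, 1 of 4 tested rose and 2 fell, against 19.0% and 22.2% of all genes. Sparcl1 (hevin) fell from 8.57 ± 1.96 to 3.57 ± 0.81 (log2 fold change -1.06, limma adjusted p = 6.3e-04), and Smoc2 fell from 10.8 ± 1.52 to 7.01 ± 1.59 (0.0075). Fstl1, a secreted glycoprotein, rose from 245 ± 13.8 to 289 ± 23.6 (limma adjusted p = 0.017).

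Markers of other skeletal and blood cells were mostly at low signals. Of 12 chondrocyte markers, 1 passed the filter (Sox5, 5.07 ± 1.20 in WT and 5.79 ± 0.50 in LRP1 eKO cells, limma adjusted p = 0.27). Of 10 osteoclast markers, 4 passed the filter and 1 rose, against 19.0% of all genes. It was Nfatc1, a transcription factor that ECs and lymphocytes also use (1.48 ± 0.17 to 2.53 ± 0.19, limma adjusted p = 5.1e-04). Of 10 megakaryocyte and platelet markers, 3 were at 0 in every library and 0 of 2 tested passed.

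The genes whose log2 signal followed that of Bglap most closely over the 8 libraries were Gbp9, Zc3hav1, Tapbp, Pgam1 and Tor3a, with Pearson's r between 0.991 and 0.994. All libraries share 2 levels, so that any gene differing between the genotypes correlates, and 336 other genes had r above 0.95. Among the 9 genes described, r with Bglap was 0.97 for Bglap2, 0.94 for Runx2, 0.54 for Spp1, -0.79 for Alpl, -0.84 for Sparc and -0.94 for Mgp. In LRP1 eKO replicates 1 to 4 Gbp9 was 2.12, 2.23, 2.04 and 1.92, and in WT replicates 1 to 4 it was 0.938, 0.816, 0.902 and 0.862, without overlap.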

How the data were processed

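mRNA-seq values of 4 WT and 4 LRP1 eKO liver EC libraries were used, grouped by the sample labels. The authors deposited 1 table of quantile-normalized signal, with 22520 genes and 1 column per library. The submitters' processing notes name TopHat2, Cufflinks and mm10, whereas the methods of the study name trimGalore, STAR, featureCounts, GENCODE and edgeR. Neither describes the quantile normalization, which removes any global shift between genotypes, and the unit before it is not stated. Read depth is unknown, and the libraries' spread is the measure of precision.

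The deposited signal was transformed to log2(signal + 1), and genotypes were compared by limma (version 3.58.1, R 4.3.3) with a mean-variance trend and no covariate. Benjamini-Hochberg adjustment ran over the 11391 genes that reached a signal of 1 in 4 or more libraries. Genes below the filter were fitted with all 17959 genes not at 0 everywhere. Single values were tested by an exact two-sided permutation test. The thresholds were an adjusted p of 0.05 and a 2-fold change. The calculation was tested on simulated data.

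The genes, the lists, the tests and the naming rule were chosen with earlier results of these data known. The rule was to name the 9 genes and Lrp1, per list up to 3 genes past both thresholds with the smallest adjusted p and up to 2 further genes with the highest mean signal, and the 5 other genes most correlated with Bglap. Further list genes were named after their values were seen. The text departs from the rule, since it does not name such genes of every list. Of 193 list genes, 192 were matched by identifier or symbol, and Acta1 is not analysed here. The results of 1 further gene are not reported here. Sequences and positions came from GENCODE M21 and RefSeq, and matplotlib 3.10.9 (Python 3.11.15) drew the figures. Alternatives were other pseudocounts, filters and limma settings, centring on a trimmed mean, the replicate number as a block, a ratio of arithmetic means and leaving out libraries.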

Additional observations from a re-analysis of the deposited data

Results flagged for a closer look

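Of 16 groups of 4 libraries examined, 1 had a library far from the other 3, where chance gives about 0.8. For Sparc, WT replicate 2 was at 3931 while the other WT libraries shared the value 3618, and its gap to the nearest library was the whole range of the group (ratio 1.0). The other 3 values were tied.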

How the results depend on the processing

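No result changed direction under any alternative. Bglap passed an adjusted p of 0.05 in each fit that tested it. Except in the fit without the filter, it was tested through its LRP1 eKO libraries alone and had to differ. Its log2 fold change was 0.39 with a pseudocount of 5 and 3.41 with one of 0.1, and the log2 ratio of its arithmetic means was 4.31. Leaving out 1 library at a time gave 1.24 to 1.35. The summed Bglap and Bglap2 signal gave 0.67 to 4.17. Besides Bglap, 2 of the genes rose and 3 fell. With a mean signal of at least 5 required, 0 rose, because Bglap, Bglap2, Alpl and Runx2 were then not tested, and with no filter 1 fell (Mgp). Leaving out 1 library gave 2 to 3 higher and 2 to 3 lower. The numbers of all genes past both thresholds, 99 higher and 90 lower, were 149 and 166 with a pseudocount of 0.1, and 40 and 26 with a pseudocount of 5. The number of higher genes was 63 with a mean signal of at least 5, 163 without WT replicate 4 and LRP1 eKO replicate 2, and between 89 and 174 without 1 library (174 without LRP1 eKO replicate 2). Apart from the mean signal filter and the pseudocounts, the cause of these shifts was not tested.

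Deviations of same-numbered WT and LRP1 eKO libraries from their group means had correlations across genes from -0.13 to 0.18, 1 of 4 above 0.1. Libraries of different numbers ranged from -0.26 to 0.21. No pairing by number was seen, and 4 libraries per group cannot exclude it. With the number as a replicate block, Bglap gave 1.29 (limma adjusted p = 8.3e-05), 102 genes were higher and 90 lower past both thresholds, and no call changed among the 7 genes tested. The read depth is unknown, so that no counting error could be given for signals near 0.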

Other observations

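Skeletal muscle genes were lower in LRP1 eKO libraries, and 6 of 6 tested fell, against 22.2% of all genes. Of these, Atp2a1 and Tnnc2 passed the filter through the WT libraries alone and had to differ. Their sum was between 47.0 and 73.1 in WT and between 14.5 and 15.9 in LRP1 eKO libraries, with WT replicate 4 the highest. Myl1, a myosin light chain, fell from 13.7 ± 4.27 to 1.90 ± 0.19 (log2 fold change -2.31, limma adjusted p = 5.1e-06). Of the fibroblast list, Eln (elastin), whose fibres mineralize in arteries that lack Mgp, fell from 3.89 ± 0.83 to 1.21 ± 0.38 (log2 fold change -1.15, limma adjusted p = 2.5e-04). Acta2, the smooth muscle actin, rose from 811 ± 37.3 to 1066 ± 32.1 (limma adjusted p = 1.8e-04). Eng, a co-receptor for BMP ligands in ECs, rose from 12.4 ± 1.20 to 24.3 ± 3.86 (limma adjusted p = 1.9e-04).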
